A study of Mus musculus with 83 samples.

Results

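A segment of mouse chromosome 10 (chr10:116700001-117300000, build mm9) held far more reads than the rest of the chromosome in the input DNA of 3T3-L1 cells. The segment comprised 6 bins of 100 kb out of 1300 on chromosome 10 and 24731 on chromosomes 1 to 19. These bins were chosen by their read density in this same library, so their densities are given as a description, with no test. The unit throughout is the number of reads, kept once per start and strand, divided by that of the median autosomal 100 kb bin, which held 185 reads.

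3T3-L1 is an established line of mouse embryo fibroblasts that can be differentiated into white fat cells. The labels call these cells immortalized white preadipocytes, taken at day 7 of differentiation as mature adipocytes, although the growth protocol given for the sample describes brown preadipocytes. Input DNA is sheared chromatin sequenced without antibody, so the number of reads in a region follows the number of copies of it, apart from mapping and library biases. There was 1 such library, with 5064617 reads, of which 4901800 differed in start or strand. No control DNA was used here, and p-values are not given. RNA came from other cells: brown preadipocytes of C57BL/6J background with floxed alleles of Pparg, immortalized with SV40 large T antigen, with 1 library each at day -3 (proliferating), day 0 (confluent, when the induction mix of indomethacin, dexamethasone, IBMX, T3 and insulin was added), day 2 (immature adipocytes) and day 7 (mature adipocytes), and interscapular brown adipose tissue of C57BL/6J mice aged 16 weeks, 1 library. No RNA of 3T3-L1 was among the data, so RNA levels below say nothing of whether extra DNA was transcribed in that line.

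Mdm2, which the definition of the segment places in it, encodes a ubiquitin ligase that binds the tumour suppressor p53 and marks it for degradation. p53 in turn activates Mdm2 through a promoter in the first intron, which makes a feedback loop. Gene amplification, a gain of many copies of a limited piece of chromosome, is a known way in which tumours and cell lines come to carry extra copies of this gene, and such copies can lie side by side in a chromosome or on small extra-chromosomal circles. Mdm2 is itself named after such circles, double minutes, in a transformed derivative of mouse 3T3 cells.

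The bases upstream of the annotated Mdm2 start are shown because this is the best-known gene of the segment. They are the 250 bases before the start in RefSeq's GRCm38.p6, another build than mm9, read on the minus strand of chromosome 10, the gene's own direction. Capitals mark GGGCGG, the GC box, on either strand.

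Mdm2 upstream: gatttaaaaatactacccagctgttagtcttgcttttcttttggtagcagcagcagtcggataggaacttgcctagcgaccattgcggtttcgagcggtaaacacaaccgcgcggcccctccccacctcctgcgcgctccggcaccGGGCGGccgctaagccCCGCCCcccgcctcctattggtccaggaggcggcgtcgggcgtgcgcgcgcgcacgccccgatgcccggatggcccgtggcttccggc

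Of these bases 65.6% are G or C, and 2 GC boxes were found. Among 32851 upstream windows of the same length, 32.7% held at least 1. The window also held 1 match to the p53 half-site, which 7.13% of windows held, and 1 CCAAT, which 33.8% held, both strands being searched. These are matches of letters, not sites shown to be bound.

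All 6 bins of the segment exceeded 3 times the median, against 0.0647% of autosomal bins and 0.155% of chromosome 10 bins outside the segment. Past 10 times the median were 5 of the 6, against 0.0364% and 0.0773%. The autosomal shares here and below include the segment's own bins, and those given here rest on 16 and 9 bins. In order along the chromosome they held 911, 5495, 6976, 7373, 7204 and 1868 reads. The densities were 4.92, 29.7, 37.7, 39.9, 38.9 and 10.1 times the median, so the outer pair were the lowest, and the first 3 and the last each held sparse DNA as well. Pooled over 0.6 Mb, the segment stood at 26.9 times the median (95% Poisson interval 26.6 to 27.2, which covers counting error only). The bin just before it was at 0.91 (0.78 to 1.06) and the bin just after it at 0.80 (0.68 to 0.94), so no bin of intermediate density lay next to it. The segment made up 0.462% of the chromosome's bins and held 11.3% of its distinct reads, and 0.608% of those of the library.

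**Figure D1:**
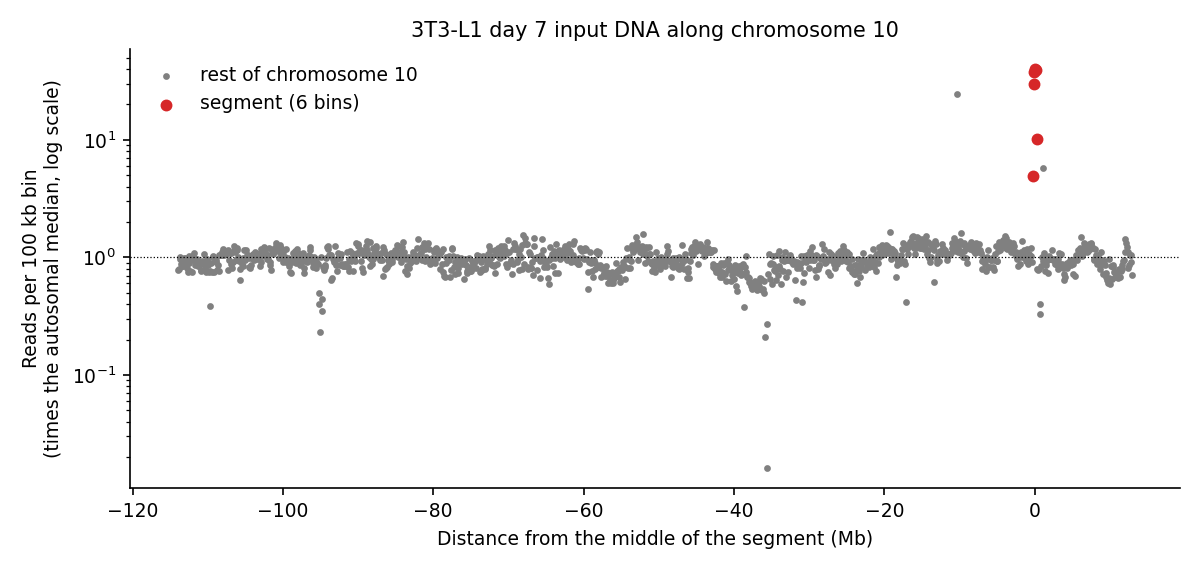
Reads per 100 kb bin of chromosome 10, as a multiple of the autosomal median on a log scale, against distance from the middle of the segment in Mb; each point is 1 bin, red for the 6 bins of the segment, and bins with 0 reads are not drawn. The 6 red points lie between 4.92 and 39.9, and 2 grey points stand above the rest, at 24.4 to their left and at 5.72 to their right. Another grey point, at 0.016 and a distance of -35.65 Mb, lies far below the rest.

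The rest of the chromosome was close to the autosomal median. Of its 1294 bins 95.7% lay between 0.5 and 1.5 times the median, with a median of 0.97. Of the 31 bins with 0 reads, 30 were the first 3 Mb of the chromosome. Bins at 1.5 times the median or more numbered 9 (0.696%, against 9.16% over all autosomes). Of these, 7 were between 1.51 and 1.66. The other 2 were far denser: the bin chr10:106600001-106700000 held 4510 reads, 24.4 times the median (23.7 to 25.1), and the bin chr10:118000001-118100000 held 1059 reads, 5.72 times (5.38 to 6.08).

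In finer bins the segment was not 1 block. Bins of 10 kb rose from 1.03 times the median to 34.2 within 20 kb near the left end, returned to about 1, and rose again about 80 kb further on. To delimit what was dense, 1 kb bins at 10 times the median or more, which were 0.0330% of autosomal 1 kb bins and 0.0464% of those of chromosome 10 outside the segment, were joined across gaps of up to 3 kb. This gave 6 stretches on chromosome 10, 4 in the segment and 2 outside it, 468 kb in all, of which 412 kb lay in the segment. Numbered from left to right, they were as follows.

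Stretch 1 was chr10:106650297-106693946, 43.65 kb long, with 4380 reads. It accounts for the denser of those 2 bins and lies 10024 kb to the left of the next stretch. Stretch 2 was chr10:116718266-116728436, 10.2 kb long, with 747 reads. It is an island of high density that forms the left end of the segment.

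Stretch 3 was chr10:116814299-116920726, 106 kb long, with 6806 reads. Stretch 4, the longest, was chr10:116927790-117221604, 294 kb long, with 21828 reads. Together these make the main body of the segment.

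Stretch 5 was chr10:117227115-117228776, 1.66 kb long, with 138 reads, a sliver just past the right end of stretch 4. Stretch 6 was chr10:118047949-118060332, 12.4 kb long, with 904 reads, and accounts for the other dense bin. Each of the 12 edges was sharp: the likelihood range of its position spanned between 21 and 138 bases. Such ranges assume reads that fall evenly on each side, and they can be too narrow. On each strand the outermost read began or ended no more than 145 bases inside the edge. The edges were placed on these same reads, so this distance is not a separate check of them.

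**Figure D2:**
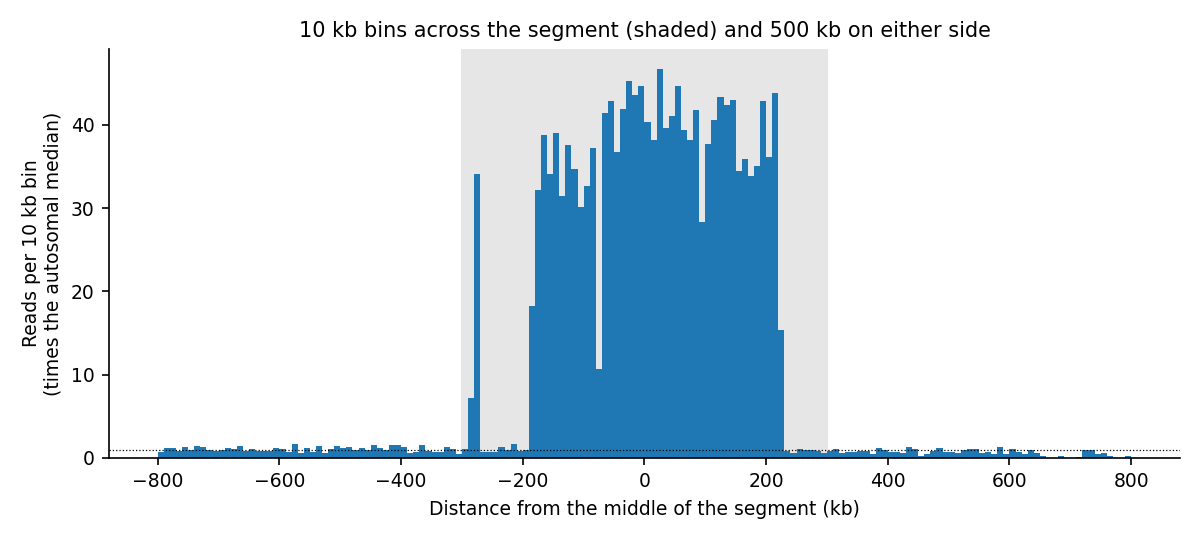
Reads per 10 kb bin as a multiple of the autosomal median, against distance from the middle of the segment in kb; each bar is 1 bin, the shading marks the 6 bins of 100 kb that define the segment, and the dotted line is the median. An island at 34.2 stands alone on the left of a body of bars that reach 46.8, and the bars fall back to about 1 on the left and lower on the right, where some are at 0.

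The gaps between the stretches differed in kind. Between stretches 2 and 3 lay 85.9 kb with 152 reads, 0.96 times the median (0.81 to 1.12), the density of unremarkable DNA. Between stretches 4 and 5 lay 5.51 kb with 13 reads, 1.28 times the median (0.68 to 2.18). In contrast, the 7.06 kb between stretches 3 and 4 held 0 reads where a density at the median would give 13.1. A count of 0 there allows a density of up to 0.28 times the median by the exact interval used for the other gaps. By a floor of 3 reads the limit is 0.23. Whether the gap is one in the mm9 assembly, unmappable sequence or missing DNA was not tested.

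The stretches reached similar but not equal densities. Stretch 4 averaged 40.2 times the median (39.6 to 40.7), stretch 2 39.7 (36.9 to 42.7) and stretch 6 39.5 (36.9 to 42.1). The ratio of stretch 2 to stretch 4 was 0.99 (0.92 to 1.06) and that of stretch 6 to stretch 4 was 0.98 (0.92 to 1.05), so these 3, although 819 kb of sparser DNA separates stretch 6 from stretch 5, did not differ beyond counting error.

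Stretch 3 was lower, at 34.6 times the median (33.8 to 35.4), a ratio of 0.86 to stretch 4 (0.84 to 0.88). Stretch 1 was the densest, at 54.2 (52.6 to 55.9), a ratio of 1.35 to stretch 4 (1.31 to 1.40). Stretch 5, with few reads, stood at 44.9 (38 to 53), and its ratio to stretch 4, 1.12, had an interval of 0.94 to 1.32 that includes 1. These intervals assume independent reads, and the unevenness within stretches described below is larger than they allow.

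**Figure D3:**
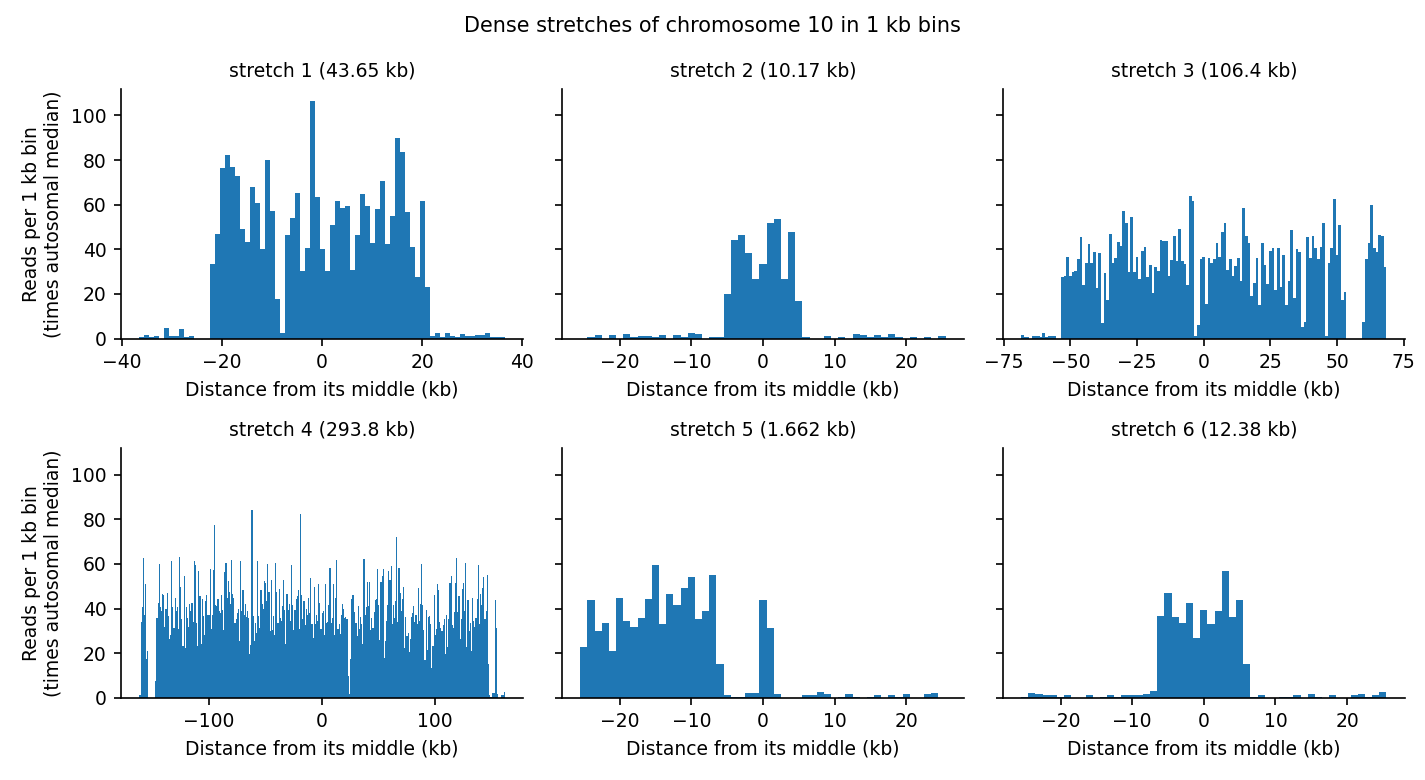
Reads per 1 kb bin as a multiple of the autosomal median, against distance from the middle of each of the 6 dense stretches in kb; each bar is 1 bin and the y axis is shared. Every stretch rises from and returns to the background within 1 or 2 bins, stretch 1 has the highest bars (up to 106), and the panels of stretches 3, 4 and 5 also show parts of their neighbours.

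Within stretches the density varied by more than counting alone gives. Over the 29 bins of 10 kb that lay wholly in stretch 4, the lowest was 28.4, the median 41.1 and the highest 46.8 times the median, with an SD of 4.14. The 3 such bins of stretch 1 ran from 43.5 to 62.3. For read counts in 1 kb bins, a Poisson count gives a variance over the mean of 1. This ratio was 13.5 in stretch 1, 4.76 in stretch 2, 8.60 in stretch 3, 6.18 in stretch 4 and 2.77 in stretch 6. It was 1.54 over chromosome 10 from 3 Mb to the bin of stretch 1, where counts were far lower. Base composition and mappability, which can move such counts, were not tested.

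A fit of constant levels at least 10 kb long to 1 kb bins over chr10:116200001-117800000 placed 7 levels of at least 10 times the median in the segment. From left to right these were 36.9 for the island, 34.7 for stretch 3, and 41.8, 32.5, 44.0, 33.5 and 41.8 across stretch 4. The alternation within stretch 4 depended on the penalty per level: with a penalty of 6 or 10 in place of 3 times the log of the number of bins, 3 levels remained in number. Bins of 1 kb under 10 times the median numbered 1 in stretch 1, 6 in stretch 3 and 2 in stretch 4. Those of stretch 4 adjoined each other, as did some of those in stretch 3. The lowest 2, both in stretch 3, were at 1.08 times the median.

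Measures that the choice of the segment did not use were close to those of the rest of the chromosome, with 1 exception. The share of reads on the plus strand was 49.87% in the segment and 49.97% outside it. The median mapping score was 178 in the segment and 189 outside (the highest score was 203), and 86.6% and 87.7% of reads scored at least 50. Among the stretches, stretch 2 had the lowest median score, 91, with 71.2% of reads at 50 or more, and stretch 1 the highest, 203 with 90.2%.

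The exception was repeated starts. Keeping reads once per start and strand removed 14.6% of the segment's reads and 2.98% of those in the rest of chromosome 10. In stretch 4 it removed 14.6% and in stretch 1 20.7%. If starts fell evenly, 2.14% of the reads in stretch 4 would be removed by chance as repeats of a start. With all reads kept, the segment stood at 30.7 times the median, stretch 4 at 45.8, stretch 3 at 39.6 and stretch 1 at 66.6. With only reads of score 50 or more, stretch 2 fell to 32.3 (29.6 to 35.2) while stretch 4 stood at 40.0, so the likeness of those 2 depends on reads of low score.

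**Figure D4:**
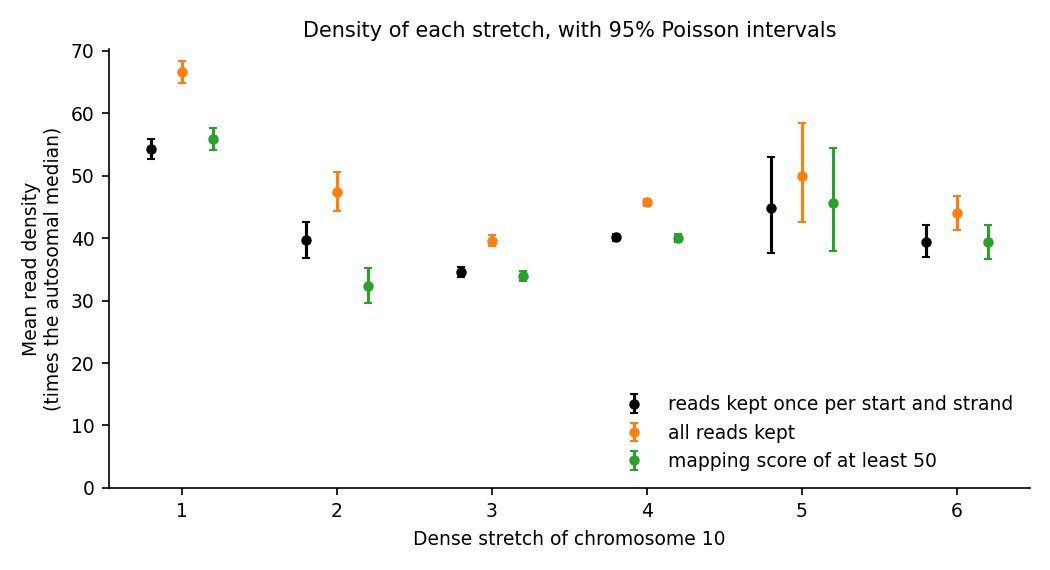
Mean read density of each of the 6 dense stretches as a multiple of the autosomal median, with 95% Poisson intervals for counting error, for reads kept once per start and strand (black), all reads (orange) and reads with a mapping score of at least 50 (green), each divided by its own median. Stretch 1 is highest in all 3 settings, and the green point of stretch 2 (32.3) lies below its black point (39.7).

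The flanks were not alike. The 1 Mb to the left of the segment averaged 1.03 times the median (0.98 to 1.08), and the 5 Mb to the left 1.14 (1.12 to 1.16). On the right, leaving out the bin that holds stretch 6, the first 1 Mb averaged 0.78 (0.73 to 0.82) and the first 5 Mb 0.87 (0.85 to 0.89). Stretch 6 raised these to 1.27 and 0.97. The lowest bins of the right flank, which together span chr10:117600001-117800000, were at 0.41 and 0.33. In the fit of levels they held a stretch of 68 kb with 6 reads (0.048 times the median) and another of at least 39 kb with 3 reads, up to the end of the fitted window.

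Between the dense stretches the level of the chromosome differed from piece to piece. The median bin was at 0.97 from 3 Mb to the bin of stretch 1 (1036 bins) and at 1.13 from there to the segment (100 bins). It was at 0.79 from the segment to the bin of stretch 6 and at 0.94 from there to the end (119 bins). The value of 0.79 rests on only 7 bins, which include the lowest bins of the right flank. At stretch 1 itself the 5 Mb before averaged 1.16 (1.14 to 1.19) and the 5 Mb after 1.10 (1.08 to 1.12), so the higher level did not begin there. Bins of the rest of the chromosome had an SD of 0.20 around their mean, leaving out those with 0 reads and the 2 dense ones.

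Elsewhere on the autosomes 28 runs met the same rule of density. Their median density was 16.4 times the median bin and their highest 141, above every stretch of chromosome 10, and 5 of them spanned at least 10 kb. These 5 lay on chromosomes 2 (82 and 28 kb), 7 (16 kb), 9 (24 kb) and 11 (73 kb) and averaged between 10.0 and 27.6 times the median. The stretches of at least 10 kb on chromosome 10 averaged between 34.4 and 53.8 when measured in the same 1 kb bins. Median scores of the 5 were 157, 157, 115, 33 and 146. Over all 28 runs, median scores ran from 24 to 203 with a median of 73.5, and 11 runs reached 100 or more. Repeats of a start made up 45.6% of the reads of the run on chromosome 9, against 9.76% to 13.4% in the others of at least 10 kb.

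Mdm2 and its neighbours were then described in RNA. No mm9 annotation was used here, so positions of genes were not set against the edges above, and which neighbours lie in which stretch was not analysed. Neighbours were taken by order in the RefSeq annotation of GRCm38.p6: the 12 nearest genes with a protein product on each side of Mdm2. Their distance from Mdm2 was not considered, so neighbours, above all the farther ones, may lie outside the segment. Before Mdm2, from the farthest, came Myrfl, Rab3ip, Best3, Lrrc10, Cct2, Frs2, Yeats4, 9530003J23Rik, Lyz2, Lyz1, Cpsf6 and Cpm. After it came Slc35e3, Nup107, Rap1b, Mdm1, Il22, Iltifb, Ifng, Dyrk2, Cand1, Grip1, Helb and Irak3. The culture tables listed 13 of these 25 genes, and a gene not listed cannot be taken as low. All 25 had a tissue value, of which 7 were 0.

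Per day of culture, the Mdm2 level was 46.9 FPKM (RNA fragments scaled to transcript length and library size) in proliferating cells (day -3), then 26.6 at confluence (day 0), 30.9 on day 2 and 38.9 on day 7, and it was 12.8 RPKM (reads scaled likewise, quantified separately) in brown adipose tissue. It was lowest at confluence and highest in proliferating cells, above 84.4% of listed genes at day -3 and 72.3% at day 0. The difference of log2(FPKM + 1) was -0.80 from day -3 to day 0, 0.21 to day 2 and 0.32 to day 7, none reaching the size of 1 (2-fold on that scale) used here. That scale understates differences of genes with low values, and with 1 library per day no difference has a replicate check. In bulk RNA a change in the share of cells of a type and a change in RNA per cell cannot be told apart.

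The genes next to Mdm2 have no shared function. Cpm, a membrane carboxypeptidase, was at 1.33 RPKM in tissue and not listed in culture. Slc35e3, a putative solute carrier, stayed between 3.78 and 5.62 FPKM. Nup107, a scaffold subunit of the nuclear pore, had 36.6, 24.0, 29.8 and 18.2 FPKM on the 4 days in order. Cpsf6, a subunit of the cleavage factor that helps place poly(A) sites, lay between 22 and 27.8 FPKM. None of the 3 with culture values reached a difference of 1 in log2(FPKM + 1) between the days compared. Nup107 came close, at -0.97 from day -3 to day 7.

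Rap1b, a small GTPase of adhesion signalling, fell over the 4 days, from 101 to 74.4, 55.8 and 45.8 FPKM, a log2 difference of -1.13. Cand1, which exchanges the substrate receptors of cullin ubiquitin ligases, fell from 134 through 91.7 and 90.3 to 59.4 FPKM, a difference of -1.16. Helb, a DNA helicase, rose from 4.71 through 7.92 and 10.5 to 15.4 FPKM, a difference of 1.52. Irak3, an inhibitor of Toll-like receptor signalling, rose from 0.435 through 2.53 and 2.75 to 7.15 FPKM, a difference of 2.51. These were the genes past 2-fold from day -3 to day 7, so 2 of 13 were higher and 2 lower, against 20.3% and 14.7% of all culture genes, and the median of the 13 was -0.33 against 0.07 over all genes. With libraries scaled to a common sum of FPKM, which moved the median of all genes to 0.20, 2 were higher and 1 lower. With a pseudocount of 0.1 in place of 1, 3 were lower.

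Rab3ip, an exchange factor for Rab8, fell from 28.9 FPKM at day -3 to 9.88 at day 0, a difference of -1.46, and Irak3 rose, by 1.30. From day -3 to day 0, 1 of 13 was thus higher and 1 lower, against 11.3% and 5.43% of all genes. From day 0 to day 2 none of the 13 differed 2-fold, against 6.18% higher and 10.7% lower. From day 2 to day 7 Irak3 alone was higher, by 1.12, and none was lower, against 9.62% and 5.14%. Read against the background, counts of 0 or 1 of 13 set no step apart.

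The other listed neighbours moved less. Frs2, an adaptor of FGF receptors, went from 27.8 FPKM at day -3 to 16.7 at day 7, and Yeats4, a reader of acetylated histones, from 24.4 to 15.4. Mdm1, a centriole protein whose name comes from the same amplified cell line as that of Mdm2, went from 4.25 to 7.54. Dyrk2, a protein kinase, lay between 8.15 and 11.8. Lyz2, lysozyme of macrophages, was at 19.6 RPKM in tissue. Of the other macrophage markers listed, tissue values were 1.04 for Adgre1, 2.17 for Csf1r and 0.443 for Lyz1, and Cd68 had none. The part of macrophages in the Lyz2 level was not tested. In tissue Cct2, a subunit of the cytosolic chaperonin, was at 25.7 RPKM and Rap1b at 29.2. Il22, Iltifb and Ifng, cytokine genes of lymphocytes, were at 0, as were Myrfl, Lrrc10, 9530003J23Rik and Grip1.

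**Figure D5:**
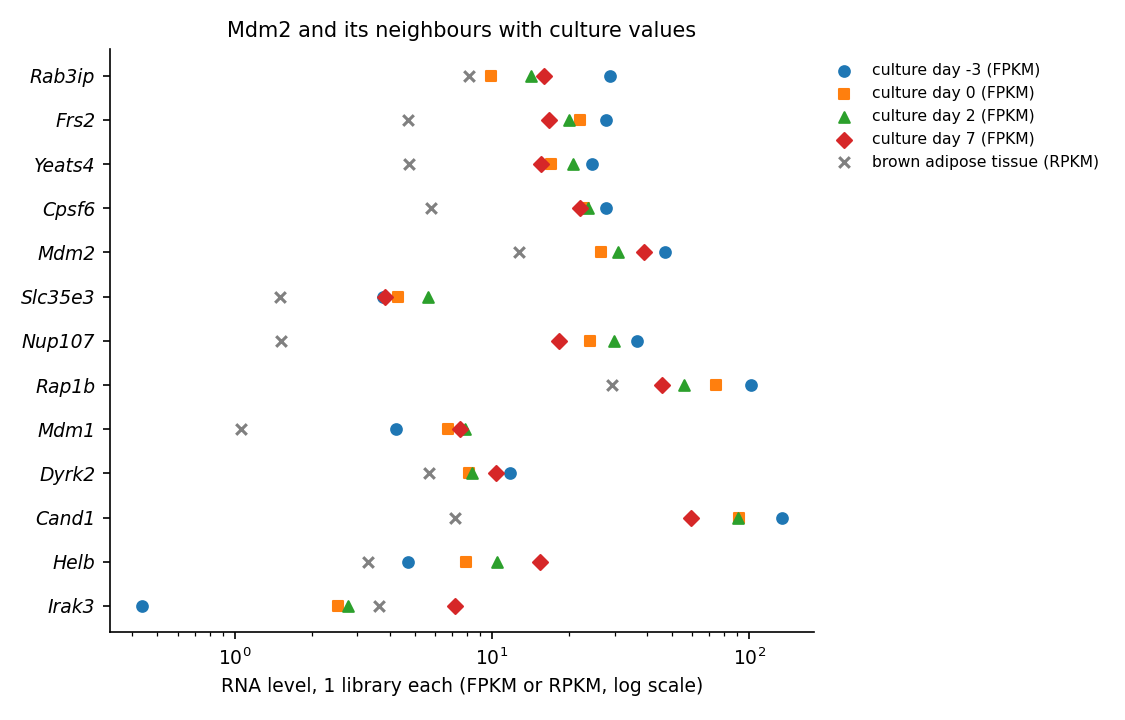
RNA level of Mdm2 and the neighbours that the culture tables list, in gene order, on a log axis; each symbol is 1 library, in FPKM for the 4 days of culture and RPKM for brown adipose tissue, which was quantified separately. Mdm2 lies between 26.6 and 46.9 FPKM in culture, Irak3 spans the widest range, from 0.435 to 7.15, and most tissue symbols lie to the left of the culture symbols.

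The p53 pathway, in which Mdm2 acts, was described from a list of 39 symbols, of which 34 had culture values. SV40 large T antigen, which these brown cells carry, binds p53. From day -3 to day 7, 12 of the 34 genes were at least 2-fold higher and 6 lower, against the 20.3% and 14.7% of all genes given above, with a median of 0.45. Trp53inp1, a p53-induced nuclear protein, rose at each day, with 1.71, 7.76, 20.8 and 65.5 FPKM. Ccng2, an atypical cyclin, went from 3.87 to 45.4, Gadd45a, a stress-response gene, from 6.19 to 65.5, and Rb1, the retinoblastoma tumour suppressor, from 2.88 to 27.1. These 4 had the largest differences of the list, and the list went both ways. The 6 lower genes, named after their values were seen, were Plk3 (-2.47), Zmat3 (-1.98), Pmaip1 (-1.96), Trp53 (-1.53), Tnfrsf10b (-1.39) and Rpl11 (-1.37).

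From day -3 to day 0, 7 of the 34 were higher and 1 lower, against 11.3% and 5.43% of all genes. From day 0 to day 2, 1 was higher and 2 lower, against 6.18% and 10.7%. From day 2 to day 7, 8 of 33 were higher and 1 lower, against 9.62% and 5.14%. Trp53 itself, which encodes p53, fell over the 4 days, with 94.3, 61.4, 38.5 and 32.0 FPKM, a difference of -1.53. Mdm4, the partner of Mdm2 in restraining p53, was at 13.7, 16.4, 21.8 and 26.3 FPKM on the same days, and Cdkn1a, a p53 target that inhibits cyclin-dependent kinases, at 40.5, 21.7, 28.9 and 92.6. These last 3 genes were chosen after their values were seen. As markers of the cells themselves, Adipoq, an adipocyte hormone, went from 0.234 FPKM at day -3 to 590 at day 7. Ucp1, the heat-producing protein of brown fat, stood at 1.22 FPKM on day 7 and 1015 RPKM in tissue. The other markers were not all alike. Cidea, also of brown fat, stood at 8.81 FPKM on day 7 and 1164 RPKM in tissue, but Prdm16 at 2.54 and 2.95. Ppargc1a and Dio2 were not listed in culture. Of the preadipocyte markers, Pdgfra rose from 1.64 FPKM at day -3 to 11.7 at day 7, and Gata2 fell from 15.4 to 0.517. The tissue library also held RNA of other cell types. Muscle markers Ckm and Myh4 stood at 237 and 155 RPKM, and endothelial Cdh5 and Pecam1 at 51.4 and 34.4. Hba-a1, of blood, was at 88.0, and none of these was listed in culture. The part of such cells in the tissue levels of Mdm2 and its neighbours was not tested.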

How the data were processed

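The input file, as deposited by the authors, lists 1 aligned read per line with its start, end and a mapping score. Scores ran from 4 to 203 and what they measure is not explained. Reads of 50 bases made up 99.4%. FPKM values by gene symbol (culture) and RPKM values for 29082 RefSeq transcripts (tissue) were also deposited. The build was mm9, per the submitters' processing notes. These list Cufflinks 1.0.3, TopHat2 2.0.10, SICER and CASAVA 1.8.2, of which only the last is named for the tissue. Which tool made which file, and the annotation, are not given in the sources used here. mRNA was purified before sequencing, per the labels' protocols. Of 83 samples, 6 were used and 77 were not analysed here.

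Of reads with the same chromosome, start and strand 1 was retained, and reads were counted by start in bins from position 0. Intervals are exact 95% Poisson intervals with the median taken as fixed, and ratios of stretches use exact binomial limits; both cover counting error only. PCR reads without molecular identifiers are not independent molecules. Levels came from a piecewise constant Poisson fit, and edges from the best single step in windows of 3 kb on either side. On 50 simulated profiles the fit found the 5 true levels in 50. That does not test the 7 levels reported for the segment. Within the longest stretch, counts varied by more than Poisson counting gives and the steps were far smaller than at its edges. Of 50 simulated edges the likelihood range held the true one in 41, with a median error of 7 bases and a largest of 93. Reads of these simulated edges fell evenly on each side, so they do not test the ranges in stretches as uneven as those here. The joining rule for dense stretches (at least 2 bins of 1 kb past the threshold), the edges at single bases and their comparison under other read filters were chosen once the data had been seen.

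Tissue transcripts were matched by RefSeq accession (97.8% to 1 symbol), and each gene took its highest transcript. RNA differences are of log2(value + 1) for genes whose larger value was at least 1. The depth of the RNA libraries was not recovered. The segment, the gene lists and the rules were chosen with earlier results of these data known. Genes named were Mdm2, its 24 neighbours, cell type markers and 4 members of the p53 pathway list, besides those said to be chosen later. The 4 members had the largest difference from day -3 to day 7. Python 3.11.15, pandas 2.3.3, numpy 2.4.6, scipy 1.17.1 and matplotlib 3.10.9 were used.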

Additional observations from a re-analysis of the deposited data

How the results depend on the processing

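Of 36 values of the input under other settings 21 stayed within the interval or tolerance of the reported one and 15 did not. The pooled density of the segment, 26.9, was 30.7 with all reads kept, 27.8 over the median of the rest of chromosome 10 and 26.6 with scores of at least 50; the highest 100 kb bin, 39.9, was 45.5 with all reads, 41.2 over the chromosome 10 median and 41.8 with bins shifted by 50 kb. The left edge stayed within 5 kb. The right edge of the levels at 10 times the median or more, 117221000, was 117230000 with 5 kb bins and 117231000 with all reads or the minus strand alone; the adjoining level, which holds stretch 5, stood at 9.84 in the reported fit. The number of levels in the segment, 7, was 3 with a penalty of 6 or 10. The left flank was 1.14 over 5 Mb; the right flank, 1.27, was 1.33 with all reads and 0.97 over 5 Mb. Bins outside the segment at 1.5 times the median, 9, were 17 over the chromosome 10 median. A median over bins with reads only was added after seeing the data and moved nothing.

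Of 64 RNA counts 11 moved by over 1.5 times. With a pseudocount of 5 the neighbours higher from day -3 to day 0 and from day 2 to day 7 were 0 and 0, and the p53 pathway counts were 4 higher and 0 lower from day -3 to day 0, 0 lower from day 0 to day 2, and 5 higher and 0 lower from day 2 to day 7. With a pseudocount of 0.1, 2 pathway genes were lower from day 2 to day 7. With libraries scaled to a common sum, 1 neighbour was lower from day -3 to day 7, and pathway genes lower were 0 from day -3 to day 0 and 2 from day 2 to day 7; the median of all genes from day -3 to day 0 was then 0.25 in place of 0.06. Mdm2 kept its direction at each step under these settings. No paired analysis was possible because each group had 1 library. Each value rests on 1 library, and depth limits most the values with few reads: the gap between stretches 4 and 5 (13 reads) and the near-empty levels of the right flank (6 and 3 reads).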
